A study of Homo sapiens with 4 samples.

Results

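A set of 45 cell cycle genes was followed in HCT116 cells carrying shRNA against the long non-coding RNA N-BLR. The members are the genes whose array probes carry 1 of 45 fixed names, out of 16973 genes named on the array. They fall into 10 genes of DNA replication, 30 genes of mitosis and 5 regulators of the passage from G1 into S phase, and the question followed here is whether the replication genes and the mitosis genes behaved alike. HCT116 is an established human colon cancer cell line. RNA of the stable clones N-BLR shRNA #3-1 and N-BLR shRNA #4-7 was hybridised to 2 Agilent arrays per clone, each time together with RNA of HCT116 cells with an empty vector. The labels name Cy5 for the shRNA clone and Cy3 for the empty vector on all 4 arrays, with no array of exchanged dyes. Each group is thus a single clone or vector line, and the labels name no further treatment. The labels speak of lentiviral transduction and the methods of transfection, so the way the lines were made is given differently. The labels count the arrays of a clone as biological replicates and the methods as duplicates, and nothing says that they came from separate cultures, so p-values measure the spread between arrays, which may be technical.

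Cells copy their DNA once per cycle. In G1 the MCM2 to MCM7 helicase is loaded at origins by CDC6 and CDT1, and at the start of S phase E2F transcription factors, released from the RB protein, raise the genes that make the replication machinery and its nucleotides. Mitosis genes such as the B-type cyclins, PLK1 and the kinesins are switched on later, in G2. Their regulators include the repressor complex DREAM and the activators B-MYB and FOXM1. Their promoters often hold an element called CHR and CCAAT boxes. In bulk RNA a higher level of such a gene can come from more cells in the phase that uses it or from more RNA per cell, and these cannot be told apart on these arrays.

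The promoters of a few members are printed here because these elements are unevenly spread over the roles compared below. Promoter windows of 250 bases before to 50 bases after the gene's start, taken from RefSeq on build GRCh38.p14, were found for 38 of the 45 members. Entries were missing for CCNE2, MCM4, MCM5, TTK, TPX2, UBE2C and FOXM1, and where a gene had several entries the first was read. Both strands were searched for E2F words (TTTCCCGC, TTTGGCGC, TTTCGCGC or TTTGCCGC), for CHR words (TTTGAA or TTCGAA) and for CCAAT. An E2F word was present in 6 of 8 replication promoters, in 3 of 4 promoters of G1/S regulators and in 3 of 26 mitosis promoters, against 3.31% of 35116 promoters in all. A CHR word stood in 17 of 26 mitosis promoters, in 2 of 8 replication promoters and in 0 of 4 promoters of G1/S regulators, against 16.4% of all promoters. CCAAT was found in 21 of 26 mitosis promoters, 6 of 8 replication promoters and 2 of 4 promoters of G1/S regulators, against 34.6% of all. A match is a description of letters and no evidence of binding. The following stretches lie before the start and are written 5′ to 3′ on the gene's strand, with E2F words and CCAAT, in either orientation, in capitals for MCM6, PCNA and E2F1.
MCM6, chr2:135876484-135876603, minus strand: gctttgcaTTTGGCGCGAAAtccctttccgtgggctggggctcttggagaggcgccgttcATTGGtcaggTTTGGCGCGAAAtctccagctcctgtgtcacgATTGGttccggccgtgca
PCNA, chr20:5126623-5126742, minus strand: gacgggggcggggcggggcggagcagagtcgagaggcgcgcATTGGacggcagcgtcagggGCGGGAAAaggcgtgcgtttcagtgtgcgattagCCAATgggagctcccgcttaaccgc
E2F1, chr20:33686386-33686505, minus strand: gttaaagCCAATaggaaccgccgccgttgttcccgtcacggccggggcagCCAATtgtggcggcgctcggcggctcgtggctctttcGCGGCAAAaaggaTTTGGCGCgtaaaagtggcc

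In MCM6 each run of E2F capitals holds a pair of overlapping words, 1 on each strand. In the mitosis promoters of KIF11, PRC1 and MKI67 below, the capitals mark CHR words and CCAAT in either orientation, and in MKI67 the CHR word nearest the start shares 1 base with a reversed CCAAT.
KIF11, chr10:92593010-92593129, plus strand: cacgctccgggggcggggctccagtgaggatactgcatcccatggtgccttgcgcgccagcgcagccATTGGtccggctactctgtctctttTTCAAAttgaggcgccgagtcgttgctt
PRC1, chr15:90994536-90994655, minus strand: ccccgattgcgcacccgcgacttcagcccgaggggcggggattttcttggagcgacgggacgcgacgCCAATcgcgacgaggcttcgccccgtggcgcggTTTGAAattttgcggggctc
MKI67, chr10:128126424-128126543, minus strand: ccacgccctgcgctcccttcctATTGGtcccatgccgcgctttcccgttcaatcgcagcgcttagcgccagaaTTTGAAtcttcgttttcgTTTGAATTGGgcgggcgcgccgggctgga

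Values are log2 ratios of Cy5, the channel labelled as the shRNA clone, over Cy3, the channel labelled as the empty vector, after background correction and normalization of the deposited spot intensities. A gene is read by its brightest probe. With these labels the E-cadherin probe is lower and the vimentin probes are higher in both clones, which is opposite to the direction that the study gives for these genes, and if the channels were exchanged every sign below would turn. No probe carries the name of N-BLR, so the knockdown itself was not read. Each array held 43376 probe spots, of which 68.5% to 71.8% were well above background in Cy3 and 71.5% to 72.6% in Cy5. All 45 members were well above background in all 8 channels and none was saturated. The log2 ratios of the arrays of a clone correlated across probes at 0.953 and 0.956, which describes probes and not replicates. Of 10 colon epithelial markers, 8 were well above background in all channels and VIL1 and CDH17 in none. Of 8 fibroblast markers 3 were above background in all channels and 4 in none, and of the blood cell markers CD3E, CD14, ITGAM and CD79A were above it in all channels while PTPRC was in none. A call below means that limma's moderated test gave an unadjusted p under 0.001, the threshold named in the methods, and adjusted p-values are limma's with Benjamini-Hochberg adjustment over all probes. The empty vector counts as 1 control sample, so the test of a clone against it leaves out the control's own spread.

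In clone #3-1, nearly the whole set was higher than in the empty vector cells. The call was reached by 41 of the 45 members, all higher, and 0 were called lower, while 21.1% of all genes were called higher and 18.8% lower. All 10 replication genes, all 5 G1/S regulators and 26 of 30 mitosis genes were among the 41. The mitosis genes outside the call were CCNB2, NEK2, KIF20A and NUSAP1, with log2 ratios of 0.20, 0.08, 0.07 and 0.15. In clone #4-7 the call was reached by 31 members that were higher and by 1 that was lower, the proliferation marker MKI67, against 20.2% of all genes called higher and 16.1% lower. These were 7 of 10 replication genes, 3 of 5 G1/S regulators and 21 of 30 mitosis genes. Both comparisons share the empty vector RNA. The count in clone #4-7 fell whichever array was left out. This includes the arrays of clone #3-1, which enter it only through the shared estimate of the spread. Without replicate 1 of clone #4-7, 19 members were called higher. The call of 7 replication genes was reduced to 3 without either array of clone #3-1 and to 2 without either array of clone #4-7. It was 2 with a normexp offset of 0 or plain background subtraction, and 3 with Feature Extraction's processed signals or the authors' table. With limma's adjusted p under 0.05 it was 10, against 32.1% of all genes called higher. An intensity trend in the prior variance also gave 10. Beside the counts under alternatives other than adjusted p, no share of all genes is given.

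Markers of the colon epithelium moved beside the cell cycle genes. Of the 10 markers, 5 were called lower and 0 higher in clone #3-1, against 18.8% and 21.1% of all genes. In clone #4-7, 5 were called lower and 1 higher, KRT19, against 16.1% and 20.2% of all genes. The median log2 ratio of the 10 markers was -0.43 and -0.38 on the arrays of clone #3-1 and -0.31 and -0.32 on those of clone #4-7. ELF3, an epithelial transcription factor, was at -2.07 and -2.00 in clone #3-1 and at -0.89 and -0.97 in clone #4-7. CLDN7, a claudin of tight junctions, was at -1.97 and -1.93 against -1.03 and -1.10, and EPCAM, an epithelial adhesion molecule, at -1.04 and -1.04 against -0.42 and -0.46. All 3 were lower than the empty vector on every array, with the larger size in clone #3-1. Other markers on the list had the lower mean in clone #4-7. KRT8 was at -0.69 in clone #3-1 and -0.90 in clone #4-7, KRT18 at -0.10 and -0.36, and CDX2 at -0.06 and -0.27. KRT19 was at -0.80 and 0.36, so the markers had no common order between the clones. Of the 8 fibroblast markers only COL1A1 was called, lower in both clones, against 18.8% and 16.1% of all genes called lower. ITGAM was called higher and CD79A lower in clone #4-7, at 0.47 and -0.24, and neither in clone #3-1. The signs of all these markers follow the channel labels too, and would turn if the channels were exchanged. The part of these markers in the cell cycle values was not tested.

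**Figure D1:**
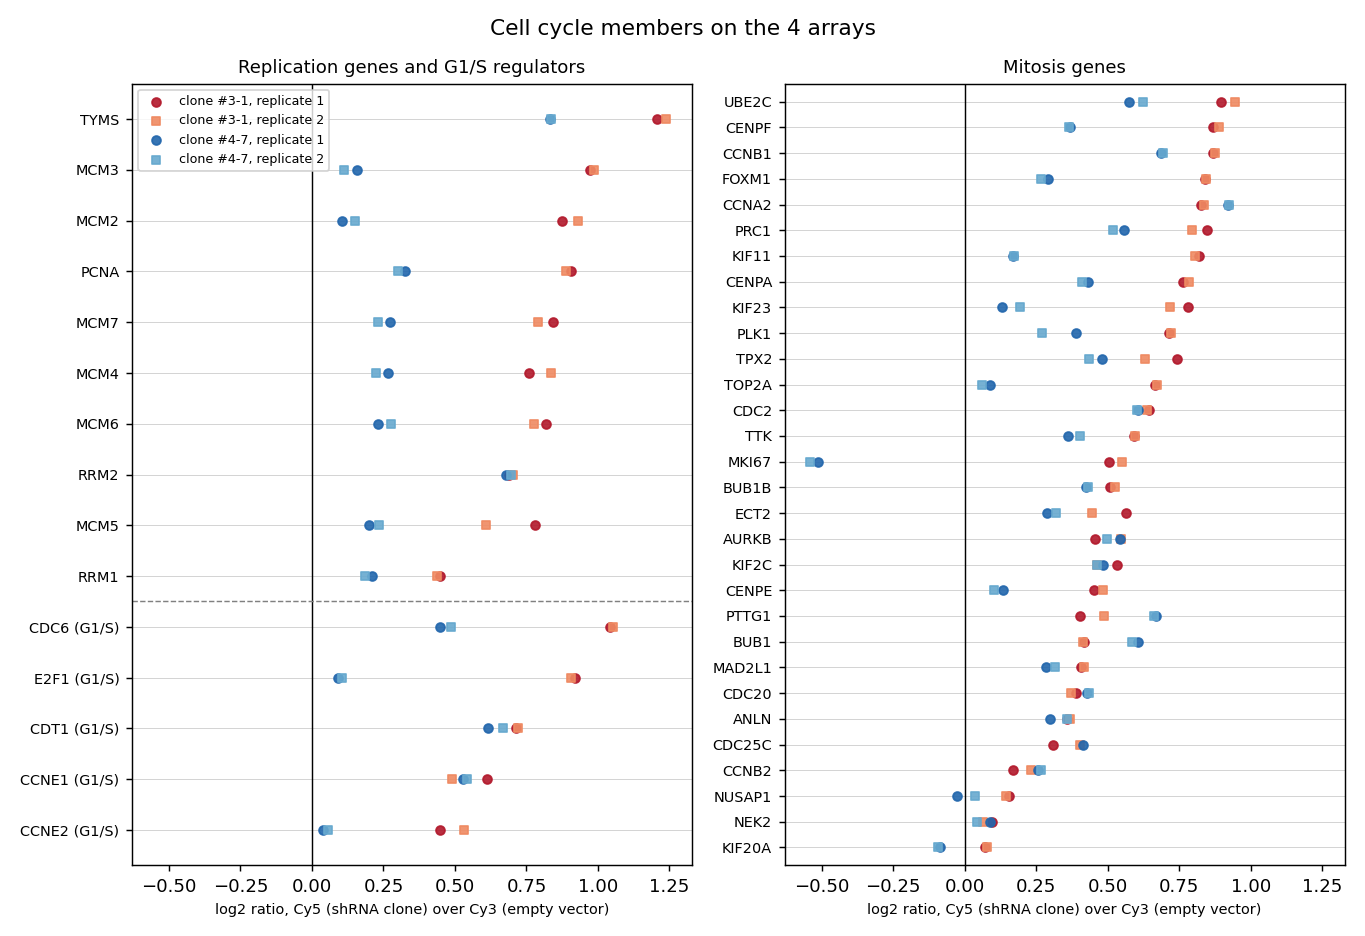
Log2 ratio of Cy5 (shRNA clone) over Cy3 (empty vector) on the x axis for each of the 45 members, with a point for each of the 4 arrays; genes are sorted by their mean in clone #3-1 and the dashed line parts replication genes from G1/S regulators. The red points of clone #3-1 lie right of the blue points of clone #4-7 for most replication genes, while CCNA2, CDC2, RRM2 and CCNE1 lie close together, and MKI67 is at 0.51 and 0.55 in clone #3-1 and at -0.51 and -0.54 in clone #4-7.

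The 6 subunits of the MCM helicase, which unwinds DNA ahead of the fork, were all higher in clone #3-1, by 1.62-fold to 1.97-fold, and nearer to the empty vector in clone #4-7, at 1.09-fold to 1.19-fold. MCM2 was at 0.87 and 0.93 on the arrays of clone #3-1 and at 0.11 and 0.15 on those of clone #4-7. MCM3 was at 0.97 and 0.99 in clone #3-1 and at 0.16 and 0.11 in clone #4-7. For both genes the arrays of the clones were far apart, and neither was called in clone #4-7 (limma's adjusted p = 0.021 and 0.013). MCM4 was at 0.76 and 0.84 against 0.27 and 0.22, and MCM5 at 0.78 and 0.61 against 0.20 and 0.24. MCM5 had the widest spread of the subunits, with an SD of 0.12 between the arrays of clone #3-1. MCM6 was at 0.82 and 0.78 in clone #3-1 and at 0.23 and 0.28 in clone #4-7, and MCM7 at 0.84 and 0.79 against 0.27 and 0.23. In no subunit did the values of the clones overlap, which with 2 arrays per clone is no test. The 6 genes lie on 6 chromosomes (build hg17: MCM2 on chromosome 3 at 128823503 to 128823562, MCM3 on 6 at 52236852 to 52236911, MCM4 on 8 at 49050887 to 49050946, MCM5 on 22 at 34143861 to 34144732, MCM6 on 2 at 136431949 to 136432008, MCM7 on 7 at 99335171 to 99335230).

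Of the other replication genes, PCNA, the clamp that holds DNA polymerases on their template, was at 0.90 and 0.89 in clone #3-1 and at 0.32 and 0.30 in clone #4-7. Its probe was printed 10 times on each array, and the SD between those spots was 0.024 to 0.050. TYMS, thymidylate synthase, which makes the thymidine nucleotide, was the highest of the 45 in clone #3-1, at 1.21 and 1.24, a fold change of 2.33 (limma's adjusted p = 1.4e-05), and was at 0.83 and 0.84 in clone #4-7. RRM1 and RRM2 are the large and small subunits of ribonucleotide reductase, which makes deoxynucleotides. RRM1 was at 0.45 and 0.44 in clone #3-1 and at 0.21 and 0.18 in clone #4-7. RRM2 was at 0.69 and 0.70 in clone #3-1 and at 0.68 and 0.70 in clone #4-7, so that its groups overlapped and the difference was 0.01 (95% interval -0.09 to 0.11).

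RRM2, however, gave another answer with its other probe. A_24_P225616 lies about a kilobase further along the gene than the brighter probe (chromosome 2, 10221085 to 10221144 and 10219972 to 10220031 in build hg17). It was at 0.95 and 1.01 in clone #3-1 and at 0.12 and 0.10 in clone #4-7, a difference of 0.87 (limma's adjusted p = 0.00016). By that probe the clones were as far apart as for MCM3, and by the brighter probe their arrays overlapped. Which probe follows the RRM2 messenger RNA better was not tested.

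**Figure D2:**
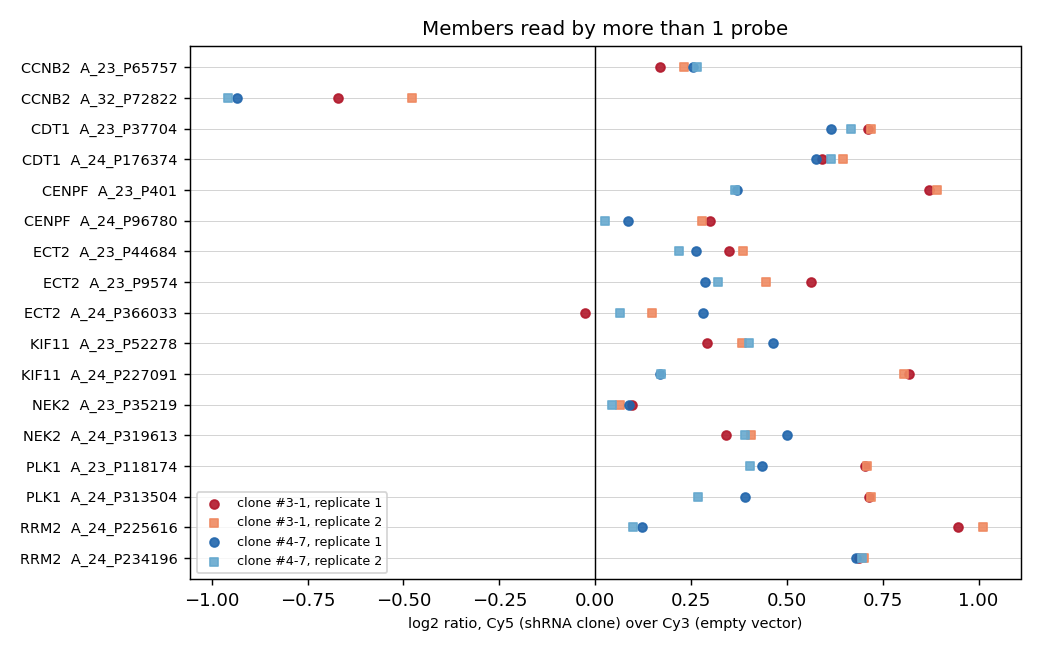
Log2 ratio of Cy5 over Cy3 on the x axis for every probe of the 8 members with more than 1 probe, 1 row per probe and 1 point per array. The probes of PLK1 and of CDT1 lie near each other, while those of RRM2, KIF11, CENPF, NEK2 and CCNB2 lie apart, and A_32_P72822 of CCNB2 is below 0 on all 4 arrays.

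Among the G1/S regulators the clones parted in 3 genes and stayed together in 2. E2F1, the transcription factor that drives S phase genes, was at 0.92 and 0.90 in clone #3-1 and at 0.09 and 0.11 in clone #4-7 (limma's adjusted p = 2.1e-05 and 0.033 against the empty vector). CDC6, the origin licensing ATPase, was at 1.04 and 1.05 in clone #3-1 and at 0.45 and 0.49 in clone #4-7. CCNE2, cyclin E2, was at 0.45 and 0.53 in clone #3-1 and at 0.04 and 0.06 in clone #4-7. These genes were higher in clone #3-1 on every array. CDT1, which works with CDC6 to load the helicase, was at 0.71 and 0.72 against 0.61 and 0.67, and CCNE1, cyclin E1, at 0.61 and 0.49 against 0.53 and 0.54. The differences of CDT1 (0.08, 95% interval -0.03 to 0.18) and CCNE1 (0.02, 95% interval -0.12 to 0.15) did not pass the test.

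Most mitosis genes were higher than the empty vector in both clones, with different genes leading in each. UBE2C, the ubiquitin-conjugating enzyme of the anaphase-promoting complex, led in clone #3-1 with 0.90 and 0.94, and was at 0.57 and 0.62 in clone #4-7. CCNA2, cyclin A2, led in clone #4-7 with 0.92 and 0.93, and was at 0.83 and 0.84 in clone #3-1. CCNB1, cyclin B1, was at 0.87 and 0.88 in clone #3-1 and at 0.69 and 0.69 in clone #4-7, and CDC2, the mitotic kinase now named CDK1, at 0.64 and 0.64 against 0.60 and 0.60. CCNA2, CCNB1 and CDC2 were called in both clones (limma's adjusted p = 2.2e-05 to 4.6e-05 in clone #3-1 and 2.6e-05 to 6.4e-05 in clone #4-7). CCNB1 differed between the clones by 0.18 (95% interval 0.08 to 0.28, limma's adjusted p = 0.015), which was not called. PRC1, which bundles the microtubules of the central spindle, was at 0.85 and 0.80 in clone #3-1 and at 0.56 and 0.52 in clone #4-7. CENPA, the histone H3 variant of centromeres, was at 0.76 and 0.78 against 0.43 and 0.41. CENPF, a kinetochore protein, was at 0.87 and 0.89 against 0.37 and 0.36. FOXM1, the transcription factor of G2 and mitosis genes, was at 0.84 and 0.84 in clone #3-1 and at 0.29 and 0.27 in clone #4-7. Of these 4 genes, each was called in both clones, with a higher value in clone #3-1.

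A smaller group of mitosis genes had higher values in clone #4-7 than in clone #3-1. BUB1, a spindle checkpoint kinase, was at 0.42 and 0.41 in clone #3-1 and at 0.61 and 0.59 in clone #4-7. PTTG1, securin, which holds back the cleavage of cohesin, was at 0.40 and 0.49 against 0.67 and 0.66. PTTG1 has near-identical copies in the genome, so its probe may read more than 1 gene. In both genes the arrays of the clones did not overlap, yet the differences of -0.18 and -0.22 did not pass p under 0.001 (limma's adjusted p = 0.017 and 0.015). CDC20, AURKB, CCNB2, CDC25C and CCNA2 also had lower means in clone #3-1, with differences from -0.09 to -0.02 and 95% intervals that included 0. For CDC25C the spot on replicate 2 of clone #4-7 was an outlier and was left out, so clone #4-7 is read there by 1 array.

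MKI67, TOP2A and KIF11 had the widest gaps between the clones among the mitosis genes. MKI67, whose protein Ki-67 coats mitotic chromosomes and marks proliferating cells, was at 0.51 and 0.55 in clone #3-1 and at -0.51 and -0.54 in clone #4-7, that is 1.44-fold the empty vector level in clone #3-1 and 0.694-fold in clone #4-7 (limma's adjusted p = 9.8e-05 and 0.00011). It was the only member called in opposite directions in the clones. MKI67 was read by 1 probe with 1 spot per array, so no second probe stands beside these values. TOP2A, the topoisomerase that untangles sister chromatids, was at 0.67 and 0.67 in clone #3-1 and at 0.09 and 0.06 in clone #4-7, where it was not called. KIF11, the kinesin that pushes spindle poles apart, was at 0.82 and 0.81 against 0.17 and 0.17. Its other probe, A_23_P52278, which lies upstream at 94403444 to 94403503 on chromosome 10 (build hg17), was at 0.29 and 0.38 in clone #3-1 and at 0.46 and 0.40 in clone #4-7, and there the difference of -0.10 did not pass the test (limma's adjusted p = 0.21). The gap of KIF11 therefore holds for the brighter of its probes only.

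The remaining mitosis genes can be ordered by their part in the spindle. Of the checkpoint genes that act with BUB1, TTK (the kinase MPS1) was at 0.59 and 0.60 in clone #3-1 and at 0.36 and 0.40 in clone #4-7, BUB1B (BUBR1) at 0.51 and 0.53 against 0.42 and 0.43, and MAD2L1 (MAD2) at 0.41 and 0.42 against 0.28 and 0.31. Their values were higher in clone #3-1 on every array, and none of the 3 differences, 0.21, 0.09 and 0.11, passed the test. CDC20, the activator of the anaphase-promoting complex that this checkpoint holds back, was at 0.39 and 0.37 in clone #3-1 and at 0.43 and 0.43 in clone #4-7.

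The kinesins went separate ways. KIF23, a motor of the central spindle that works with ECT2 and PRC1 in cytokinesis, was at 0.78 and 0.72 in clone #3-1 and at 0.13 and 0.19 in clone #4-7, a difference of 0.59 (limma's adjusted p = 0.00057). CENPE, the kinetochore motor that moves chromosomes to the spindle equator, was at 0.45 and 0.48 against 0.13 and 0.10. KIF2C (MCAK), which takes microtubules apart, was at 0.53 and 0.46 in clone #3-1 and at 0.48 and 0.46 in clone #4-7, so its arrays overlapped between the clones. KIF20A was near the empty vector everywhere, at 0.07 and 0.08 in clone #3-1 and at -0.09 and -0.10 in clone #4-7, and was called in neither.

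Among the mitotic kinases and spindle proteins, PLK1 was at 0.71 and 0.72 in clone #3-1 and at 0.39 and 0.27 in clone #4-7, and its second probe also differed between the clones, by 0.29 (limma's adjusted p = 0.0035). AURKB, the kinase that corrects faulty attachments, was at 0.46 and 0.55 against 0.54 and 0.50, with overlapping arrays. TPX2, which activates Aurora A on the spindle, was at 0.74 and 0.63 in clone #3-1 and at 0.48 and 0.43 in clone #4-7. ANLN (anillin), a scaffold of the cytokinetic ring, was at 0.36 and 0.37 against 0.30 and 0.36, and NUSAP1, a microtubule-binding protein, at 0.16 and 0.14 against -0.03 and 0.04. PLK1 was the 1 gene of these 5 whose difference between the clones was called. All but NUSAP1 were called higher than the empty vector in both clones.

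Some further probes of members fell on the other side of the threshold. The second probe of CENPF, A_24_P96780, was at 0.29 in clone #3-1 and, not called, at 0.06 in clone #4-7. For NEK2, a centrosome kinase, the brighter probe was not called in either clone, while A_24_P319613 was at 0.37 and 0.45 and was called in both. ECT2, the activator of RhoA in cytokinesis, was called in both clones with the probes A_23_P9574 and A_23_P44684 and in neither with A_24_P366033, at 0.06 and 0.17. CCNB2, cyclin B2, had the only probe of opposite sign. A_32_P72822 was designed on the cDNA AK023404, its coordinates run opposite to those of the other CCNB2 probe, and it was at -0.67 and -0.48 in clone #3-1 and at -0.93 and -0.96 in clone #4-7. It may therefore read RNA from the other strand, and was not counted as the messenger of CCNB2.

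Compared directly, 21 of the 45 members were higher in clone #3-1 than in clone #4-7 and 0 were lower, against 13.3% of all genes called higher and 14.4% lower. The empty vector RNA is common to all arrays and drops out of this contrast. Among the replication genes 8 of 10 passed, all but RRM1 and RRM2, against 10 of 30 mitosis genes and 3 of 5 G1/S regulators. The largest differences were those of MKI67, at 1.05 (95% interval 0.95 to 1.16), MCM3, at 0.84 (0.74 to 0.95), and E2F1, at 0.81 (0.71 to 0.91), with limma's adjusted p = 8.9e-05, 0.00015 and 0.00014. They were followed by MCM2, at 0.77, KIF11, at 0.64, and TOP2A, at 0.59. The 10 mitosis genes were MKI67, KIF11, TOP2A, KIF23, FOXM1, CENPF, PLK1, CENPA, CENPE and UBE2C. Fewer of them passed when any array was left out, 6 without either array of clone #3-1 or without replicate 2 of clone #4-7 and 7 without replicate 1 of clone #4-7, while 6 or 7 of the replication genes passed. The contrast between the roles also moved with the settings. With limma's adjusted p under 0.05, or with an intensity trend in the prior variance, 9 replication genes and 17 mitosis genes were higher in clone #3-1. With a normexp offset of 0 they were 5 and 6, and with plain background subtraction 3 and 5. The adjusted p called 23.8% of all genes higher in this contrast, and for the other alternatives no share is given.

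**Figure D3:**
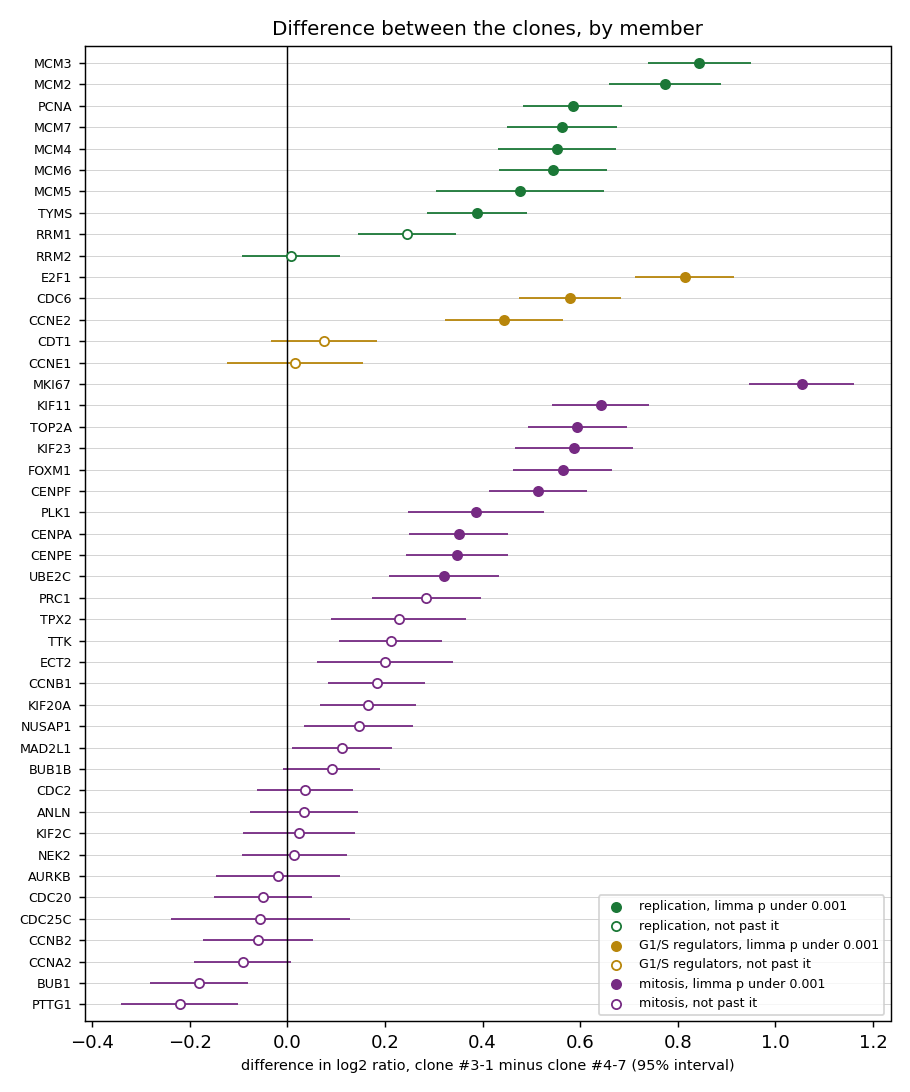
Difference in log2 ratio between the clones, #3-1 minus #4-7, on the x axis for the 45 members, with 95% intervals from the limma fit over 4 arrays; filled points passed limma's unadjusted p under 0.001 and open points did not. The replication genes lie between 0.01 (RRM2) and 0.84 (MCM3), and the mitosis genes between -0.22 (PTTG1) and 1.05 (MKI67).

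As groups, replication and mitosis genes took opposite ranks in the clones. The median log2 ratio of the 10 replication genes was 0.83 and 0.81 on the arrays of clone #3-1 and 0.25 and 0.23 on those of clone #4-7. For the 30 mitosis genes it was 0.55 and 0.55 in clone #3-1 and 0.38 and 0.36 in clone #4-7, and for the 5 G1/S regulators 0.71 and 0.72 against 0.45 and 0.49. Over all 16973 genes the median lay between 0.01 and 0.02 on every array. The replication median was thus above the mitosis median by 0.28 and 0.27 in clone #3-1 and below it by a log2 difference of -0.13 on each array of clone #4-7. The mean gap was 0.27 ± 0.01 (SD, n = 2 arrays) in clone #3-1 and -0.13 ± 9.6e-05 (SD, n = 2 arrays) in clone #4-7. It changed by 0.40 between the clones. The SD of 9.6e-05 is no measure of precision, since the replication and mitosis medians each had an SD of 0.011 in clone #4-7. The gap is a description over genes chosen with earlier results of these data known, and no test was made of it.

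**Figure D4:**
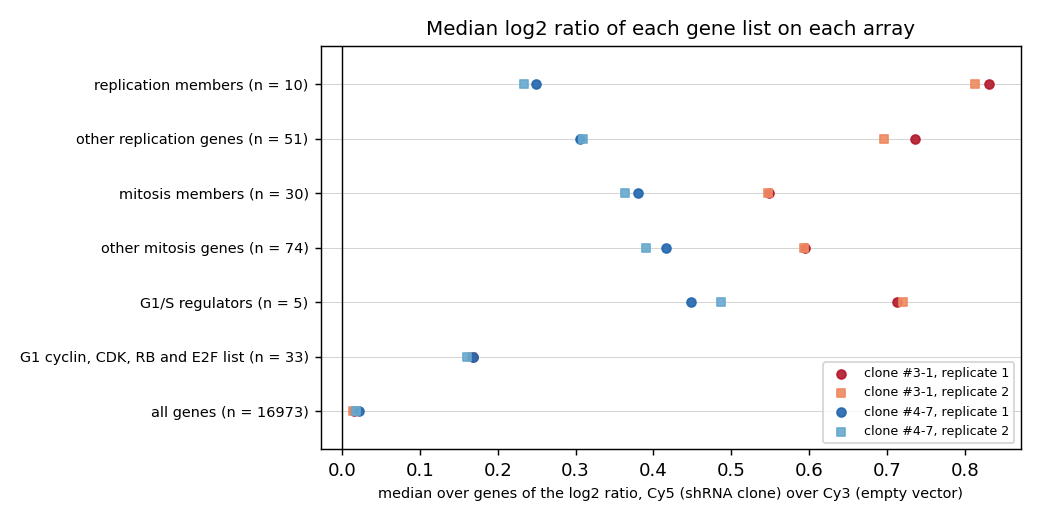
Median over genes of the log2 ratio of Cy5 over Cy3 on the x axis, for each gene list and each of the 4 arrays. Replication members lie at 0.83 and 0.81 in clone #3-1 and at 0.25 and 0.23 in clone #4-7, mitosis members at 0.55 and 0.55 and at 0.38 and 0.36, and all genes close to 0 on every array.

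The medians of the other genes of these pathways had the same order as those of the members, with smaller gaps. Their replication median minus their mitosis median was 0.12 in clone #3-1 and -0.095 in clone #4-7, a change of 0.22. For the members these values were 0.27, -0.13 and 0.40. The further lists were also chosen with earlier results of these data known, so they are no independent check of the members. No test was made of their gap. Of 51 further genes of origin licensing and the replication fork, 41 were called higher and 0 lower in clone #3-1, and 33 higher and 2 lower in clone #4-7, that is 80.4% and 0% against 21.1% and 18.8% of all genes, and 64.7% and 3.92% against 20.2% and 16.1%. Their median was 0.74 and 0.70 on the arrays of clone #3-1 and 0.31 and 0.31 on those of clone #4-7, and 33 were higher and 1 was lower in clone #3-1 than in clone #4-7, against 13.3% and 14.4% of all genes. MCM10, which helps to activate the helicase, was at 1.71 and 1.73 in clone #3-1 and at 0.81 and 0.73 in clone #4-7. POLA1, the catalytic subunit of the polymerase that lays primers, was at 1.097 and 1.03 against 0.12 and 0.12, and UHRF1, which guides methylation of new DNA, at 1.16 and 1.22 against 0.35 and 0.30. POLE2, a subunit of the leading strand polymerase, was the 1 gene lower in clone #3-1, at 0.46 and 0.45 against 0.88 and 0.81.

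The further list of spindle, kinetochore and cytokinesis genes also held regulators of cyclin-dependent kinases and the anaphase-promoting complex, such as CDC25A, WEE1 and FBXO5. Of its 74 genes, 65 were called higher and 2 lower in clone #3-1, and 58 higher and 4 lower in clone #4-7. The shares of all genes were those given above (21.1% and 18.8%, 20.2% and 16.1%). The median of the 74 genes was 0.60 and 0.59 in clone #3-1 and 0.42 and 0.39 in clone #4-7. Between the clones, 30 were higher and 3 lower in clone #3-1 than in clone #4-7, against 13.3% and 14.4%. FBXO5 (also EMI1), an inhibitor of the anaphase-promoting complex, was at 1.24 and 1.29 in clone #3-1 and at 0.43 and 0.34 in clone #4-7. ZWINT, a kinetochore protein, was at 1.46 and 1.42 against 0.53 and 0.60. WEE1, the kinase that holds back CDK1, was at 0.55 and 0.45 in clone #3-1 and at -0.34 and -0.30 in clone #4-7. The 3 genes that were lower in clone #3-1 were FZR1, UBE2S and CENPC. FZR1, an activator of the anaphase-promoting complex in G1, was at -0.77 and -0.76 against 0.43 and 0.43 with its brightest probe, but 2 of its 4 probes, A_24_P318836 and A_24_P944291, had the opposite difference, 0.28 and 0.29. UBE2S, which extends ubiquitin chains for that complex, was at 0.21 and 0.20 against 0.50 and 0.57, and CENPC, a centromere protein, at 0.33 and 0.31 against 0.64 and 0.64.

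The list of G1 cyclins, their kinases and inhibitors and the RB and E2F families had no common direction. Of its 33 measured genes, 15 were called higher and 11 lower in clone #3-1, 14 higher and 5 lower in clone #4-7, and 7 higher and 8 lower in clone #3-1 than in clone #4-7. The shares of this list, 45.5% and 33.3%, 42.4% and 15.2%, and 21.2% and 24.2%, stand against 21.1% and 18.8%, 20.2% and 16.1%, and 13.3% and 14.4% of all genes. CDKN1A, the p21 inhibitor of cyclin-dependent kinases, was at -0.67 and -0.67 in clone #3-1 and at 0.62 and 0.63 in clone #4-7, a difference of -1.29 (limma's adjusted p = 4.7e-05), and its second probe differed by -1.42. CDK6, a G1 kinase, was at 0.73 and 0.64 against 1.88 and 1.91, and CDKN2D, the p19 inhibitor of CDK4 and CDK6, at -0.92 and -1.06 against -0.01 and -0.01. These genes were lower in clone #3-1 than in clone #4-7 on every array. E2F2 was at 1.03 and 1.03 in clone #3-1 and at -0.02 and -0.05 in clone #4-7 with its brighter probe, and its other probe was not called in any comparison. GADD45A, a stress gene that can hold cells in G2, was at -0.38 and -0.40 against -0.90 and -0.91, and BTG2, an antiproliferative gene, at -0.76 and -0.77 against -1.25 and -1.25. MYBL2, the B-MYB factor, was at 0.87 and 0.87 in clone #3-1 and at 0.62 and 0.69 in clone #4-7. CCND1, cyclin D1, was at 0.12 and 0.09 against 0.13 and 0.12 with its brightest probe and was not called, while A_24_P124550, 1 of its other 2 probes, was called in clone #4-7 at 0.36.

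**Figure D5:**
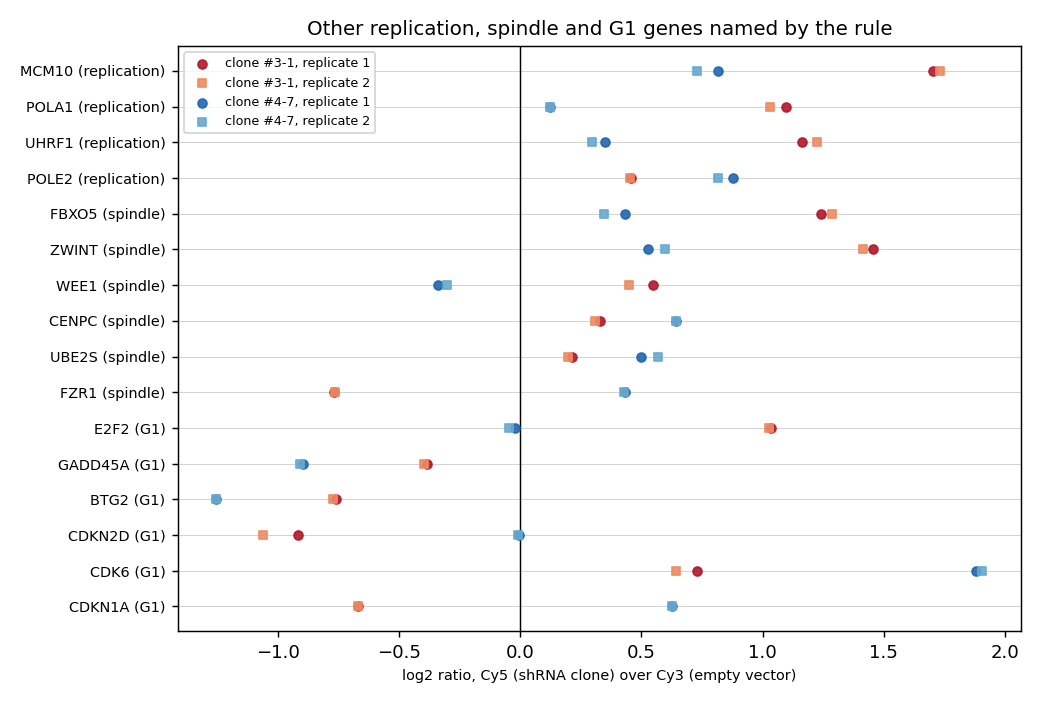
Log2 ratio of Cy5 over Cy3 on the x axis for the genes named from the lists of other replication, spindle and G1 genes, 1 row per gene and 1 point per array. CDKN1A and FZR1 lie below 0 in clone #3-1 and above 0 in clone #4-7, WEE1 the other way round, and BTG2 and GADD45A are below 0 on all 4 arrays.

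Set beside the promoter letters, the difference between the clones had a median of 0.55 over the 12 members with an E2F word and of 0.10 over the 26 members without. Most of the 12 are replication genes or G1/S regulators, so the letters and the role of a gene are not separate here. Within the replication genes the median difference was 0.57 for the 6 genes with an E2F word and 0.13 for the 2 without, RRM1 and RRM2. RRM2 is read there by its brighter probe. Its other probe differed by 0.87, so the value for the 2 genes depends on the choice of probe. Within the G1/S regulators it was 0.58 for the 3 genes with the word and 0.02 for the 1 without, CCNE1. Within the mitosis genes it was 0.15 for the 3 with the word and 0.11 for the 23 without. By CHR word, the mitosis genes had a median difference of 0.20 for the 17 with it and 0.01 for the 9 without. Those without it include CCNA2, CCNB1 and CDC25C, and CDC25C had 4 promoter entries, of which the first was read. Other start sites or search words could move genes between the 17 and the 9. These medians are descriptions across genes, which are not independent replicates.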

How the data were processed

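RNA of 2 HCT116 clones and of empty vector cells was read on 4 two-colour Agilent arrays, all on 1 slide. Per channel, the authors deposited a mean intensity for every spot with the median intensity around it, read from the scans by Agilent Feature Extraction and left without normalization. Its version is 8.5.1.1 in the submitters' processing notes and 9.5.3.1 in the file headers. Log10 ratios of Cy5 over Cy3 were deposited by the authors as well, in 1 table for all arrays, and lay within 0.005 of the log10 ratios in the scanner files and had a median of 0 on each array. Probe positions refer to build hg17, as the files state.

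Ratios were computed with limma 3.58.1 in R 4.3.3, whose use the study's methods name together with the log2 scale, background correction, normalization within arrays, quantiles between arrays and averaged replicate spots. Normexp with an offset of 50 as background method and loess within arrays were chosen here. Control spots and 87 to 125 outlier spots per array were left out. In the linear model, fitted to 41000 probes, each clone had its own coefficient, estimated from its own arrays. The spread was estimated from all 4 arrays together. Empirical Bayes statistics followed, with the threshold of 0.001 applied to limma's unadjusted p. The script was tested on simulated data with known changes. A gene was read by its brightest probe over both channels, among 25967 probes whose name matched 1 of 16973 genes in RefSeq. Motifs and figures were made with Python 3.11.15, pandas 2.3.3 and matplotlib 3.10.9. The number of arrays limits the precision.

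The members and gene lists were chosen with earlier results of these data known. The genes given by array were all replication genes and G1/S regulators, the 8 mitosis genes of largest size in each clone, the 6 largest differences between the clones, up to 3 genes per direction from each other list, and CDKN1A, CCND1 and MYBL2. Further probes of members were named where they passed or missed the threshold differently or had the other sign. The further lists held 52, 78 and 36 genes, of which 51, 74 and 33 were found on the array. Alternatives changed the background correction, the source of the values, normalization, filter, threshold, prior variance, probe choice and the arrays used. A blood cell marker on the list is not reported here.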

Additional observations from a re-analysis of the deposited data

Results flagged for a closer look

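The clones differed from each other in 21 members by limma's test of the difference itself (p under 0.001). Each had a higher log2 ratio in clone #3-1, while 13.3% of all genes were called higher in that contrast. Among the replication genes the differences were 0.84 for MCM3, 0.77 for MCM2, 0.58 for PCNA, 0.56 for MCM7, 0.55 for MCM4, 0.54 for MCM6, 0.48 for MCM5 and 0.39 for TYMS. The G1/S regulators E2F1, CDC6 and CCNE2 differed by 0.81, 0.58 and 0.44. For the mitosis genes the differences were 1.05 for MKI67, 0.64 for KIF11, 0.59 for TOP2A, 0.59 for KIF23, 0.56 for FOXM1, 0.51 for CENPF, 0.39 for PLK1, 0.35 for CENPA, 0.35 for CENPE and 0.32 for UBE2C. KIF11 and CENPF each have a second probe that did not pass this test. MKI67 alone among the 21 was lower than the empty vector in clone #4-7. The clones are 1 line each and all arrays lie on 1 slide, so a difference between these clones cannot be told apart from a difference between the shRNAs they carry.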

How the results depend on the processing

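The direction of every member called above was kept under each alternative that gave a value (16 for a clone against the empty vector and 15 between the clones, and 1 fewer for CDC25C in the comparisons with clone #4-7), except CCNB2 in clone #4-7, which turned to -0.34 when all probes of a gene were averaged, since that mean takes in its probe of opposite sign. Over the alternatives 34 to 43 members were higher and 0 lower in clone #3-1. In clone #4-7, 31 members were higher as reported, 19 with a normexp offset of 0 and 17 with plain background subtraction, and between 19 and 26 when an array was left out. The lower members there numbered 2 instead of 1 with Benjamini-Hochberg adjusted p under 0.05 (25.5% of all genes), with an intensity trend in the prior variance, and with the mean of all probes. Between the clones, 21 members were higher in clone #3-1 as reported, 13 with an offset of 0, 10 with plain subtraction and 14 or 15 without 1 array, and 2 instead of 0 were lower with adjusted p (24.8% of all genes; BUB1 and PTTG1) and with the trend. The gap of the replication over the mitosis median in clone #3-1 (0.27) was 0.19 with Feature Extraction's processed signals, 0.20 with the authors' table, 0.30 with all probes averaged, 0.29 without normalization between arrays, 0.25 with an offset of 0, 0.24 with plain subtraction, and 0.265 to 0.283 without 1 array. In clone #4-7 (-0.13) it was -0.18 with the processed signals, -0.18 with the table, -0.131 with all probes averaged, -0.126 with median centring, -0.13 without normalization between arrays, -0.130 with an offset of 0, -0.130 with plain subtraction, and -0.1303 to -0.1302 without 1 array. Its change between the clones (0.40) was 0.37, 0.38, 0.44, 0.42, 0.38 and 0.37 under the alternatives named for clone #3-1, in that order, and 0.396 to 0.413 without 1 array. Shares of all genes are given only for the reported setting and for adjusted p. The counts under the other alternatives therefore do not show whether members lost calls more often than other genes. The causes of these shifts were not tested. Where 1 array of a clone was left out, the lone array was assumed to vary like the others. The replicate numbers do not pair the arrays (correlation of deviations -0.013 over 2 pairs). With the replicate number as a block, 40 members were higher in clone #3-1, 27 higher and 1 lower in clone #4-7, and 16 higher in clone #3-1 than in clone #4-7. Of 2113 single values of members under the alternatives, 1875 kept sign and side of the threshold, 178 lost the call, 59 gained it and 1 reversed.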
